A study of Mus musculus with 9 samples.

Results

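The genes described here are 36 members of the hypoxia-inducible factor (HIF) pathway and of glycolysis, chosen by gene symbol from a list written for this purpose. All 36 were found among the 19517 genes of the authors' deposited table, and all 36 had values in each of 3 comparisons. The tissue was the mouse ovary, measured by RNA-seq. Every mouse was a female BALB/c nude animal, which lacks a thymus and so most T cells, and bore a xenograft of the human breast cancer line MDA-MB-231. The UT libraries (n = 3) came from animals labelled with no treatment, the CTX libraries (n = 3) from animals given cyclophosphamide (CTX), an alkylating drug, and the CAU libraries (n = 3) from animals labelled caulerpin, an algal indole alkaloid. The labels give no dose, duration or animal age, and they do not state whether the CAU animals also received cyclophosphamide. The series title poses the question of whether caulerpin alters ovarian damage by cyclophosphamide, with macrophages and granulosa cell senescence named in it.

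HIF is a transcription factor made of an oxygen-sensitive alpha subunit and the stable partner ARNT. When oxygen is plentiful, prolyl hydroxylases of the EGLN family mark the alpha subunit for capture by VHL and destruction. When oxygen is scarce the protein accumulates, binds DNA at a short core, and raises genes for glucose uptake, glycolysis, vessel growth and mitophagy. Because that control acts mainly on the protein, transcript levels of the alpha subunit and of its targets are separate readouts. In the ovary, granulosa cells of avascular follicles use glycolysis heavily and feed pyruvate and lactate to the oocyte.

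Each value below is a log2 fold change between groups of libraries, with the standard error (SE) implied by its DESeq2 p-value. Values per library were not analysed here, so neither single ovaries nor absolute levels are compared, the range of each group is not shown, and the labelled tissue could not be checked by marker levels. The numerator of each ratio is not stated by the table. A column naming a pair of groups was taken to give the later-named group relative to the earlier-named one, and the other reading would turn every direction. The labels number the libraries without naming separate mice, so the spread behind each p-value is that of these samples and may be technical. In bulk tissue, fewer cells of a type and less RNA per cell cannot be told apart.

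HIF recognises DNA through a short core, ACGTG or GCGTG, of which ACGTG was searched first. The starts of the genes that came closest to differing between CTX and UT are printed here so that ACGTG can be seen in them. They are Hif1a, the only member to pass the threshold, and Egln3, Pfkfb3 and Ddit4, which had an unadjusted p under 0.05. Ndrg1 also did, but has no promoter entry. The first Ldha window is added as the member window with the most matches. Each window runs 5′ to 3′ on the gene's strand, from 250 bases before to 50 after an annotated start in RefSeq, build GRCm38.p6, with matches to ACGTG on either strand in capitals:
Hif1a, chr12:73907617-73907916, plus strand: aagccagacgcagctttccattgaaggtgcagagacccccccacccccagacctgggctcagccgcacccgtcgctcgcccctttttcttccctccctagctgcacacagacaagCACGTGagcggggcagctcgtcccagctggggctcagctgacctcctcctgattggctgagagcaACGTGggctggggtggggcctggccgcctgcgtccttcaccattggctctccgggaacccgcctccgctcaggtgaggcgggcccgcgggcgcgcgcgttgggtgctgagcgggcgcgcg
Egln3, chr12:54203825-54204124, minus strand: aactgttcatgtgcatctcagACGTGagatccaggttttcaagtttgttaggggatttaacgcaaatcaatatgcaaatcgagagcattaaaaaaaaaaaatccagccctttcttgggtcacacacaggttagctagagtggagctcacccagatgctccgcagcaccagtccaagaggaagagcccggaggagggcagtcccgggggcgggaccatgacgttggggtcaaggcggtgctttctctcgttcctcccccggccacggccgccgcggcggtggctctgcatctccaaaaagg
Pfkfb3 window 1, chr2:11553880-11554179, minus strand: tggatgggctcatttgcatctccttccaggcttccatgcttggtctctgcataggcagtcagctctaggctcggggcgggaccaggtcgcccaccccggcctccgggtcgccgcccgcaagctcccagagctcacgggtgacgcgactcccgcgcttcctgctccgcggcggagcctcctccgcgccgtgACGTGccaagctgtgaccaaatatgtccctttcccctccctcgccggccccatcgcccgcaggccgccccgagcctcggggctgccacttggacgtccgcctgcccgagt
Pfkfb3 window 2, chr2:11502041-11502340, minus strand: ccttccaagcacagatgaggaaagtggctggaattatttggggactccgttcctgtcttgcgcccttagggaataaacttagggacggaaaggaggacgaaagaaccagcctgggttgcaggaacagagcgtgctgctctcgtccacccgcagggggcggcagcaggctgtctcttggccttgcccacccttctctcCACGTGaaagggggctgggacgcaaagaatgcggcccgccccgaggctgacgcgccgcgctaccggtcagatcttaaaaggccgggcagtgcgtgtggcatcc
Ddit4, chr10:59951721-59952020, minus strand: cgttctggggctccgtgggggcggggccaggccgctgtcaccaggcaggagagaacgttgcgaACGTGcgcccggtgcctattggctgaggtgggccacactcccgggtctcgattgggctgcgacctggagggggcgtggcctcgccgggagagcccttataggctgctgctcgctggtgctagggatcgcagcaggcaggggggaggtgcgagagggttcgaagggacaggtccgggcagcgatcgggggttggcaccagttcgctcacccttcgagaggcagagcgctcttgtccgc
Ldha window 1, chr7:46845554-46845853, plus strand: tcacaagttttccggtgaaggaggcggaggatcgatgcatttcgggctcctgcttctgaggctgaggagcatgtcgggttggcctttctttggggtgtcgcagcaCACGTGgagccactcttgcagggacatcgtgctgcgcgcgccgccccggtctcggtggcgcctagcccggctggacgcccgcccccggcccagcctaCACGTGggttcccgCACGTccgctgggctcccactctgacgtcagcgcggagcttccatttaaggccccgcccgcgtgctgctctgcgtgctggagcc

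The Hif1a window held 3 matches, of which 2 overlap in the palindrome formed by bases 116 to 121 and 1 lies at bases 181 to 185, counted from 1 at the 5′ end. The Egln3 match lies far upstream, at bases 22 to 26, and that of Ddit4 at bases 64 to 68. The Pfkfb3 matches sit nearer the start, at bases 191 to 195 of window 1 and 198 to 203 of window 2. Ldha, which encodes a subunit of lactate dehydrogenase, had 5 matches, 4 of them in 2 palindromes. Of the 36 members, 32 had promoter entries, with 46 windows in all. A match occurred in 23 of 46 windows, beside 22.3% of 19135 windows of genes listed by the authors and 19.6% of all 32851 windows. By gene, 21 of 32 members (65.6%) had a match, beside 25.4% of 15389 genes. With GCGTG counted too, 28 of 32 members (87.5%) had a match, beside 57.7% of these genes. Many members were listed for being known HIF targets, so a high share was built into the list. A match describes letters in a window and shows neither binding nor a cause. The 21 members with a match had a median log2 fold change of -0.09 in CTX against UT, and the 11 with windows but no match had -0.02. The difference between these medians was not tested.

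Between CTX and UT, Hif1a transcripts rose and no other member passed. Hif1a, which encodes the HIF-1 alpha subunit (chromosome 12, 73901324 to 73947554, GRCm38.p6), was 1.21-fold higher in CTX, with a log2 fold change of 0.28 (SE 0.07, n = 3 and 3) and adjusted p = 0.00546 by DESeq2 by the authors' deposited table. The 95% interval of that fold ran from 1.11 to 1.32. The change was small: of the 249 genes called in this comparison, 25 had a smaller absolute log2 fold change, and the median among called genes was 0.68. Its precision was high: a gene with the SE of Hif1a needed only an estimated 1.17-fold difference to pass. Thus 1 of 36 members was called, higher, beside 1.29% of all 19260 genes called in either direction and 0.472% called higher. At an unadjusted p under 0.05 there were 5 of 36 members (13.9%, 2 higher and 3 lower) beside 10.2% of all genes (4.42% higher and 5.79% lower).

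**Figure D1:**
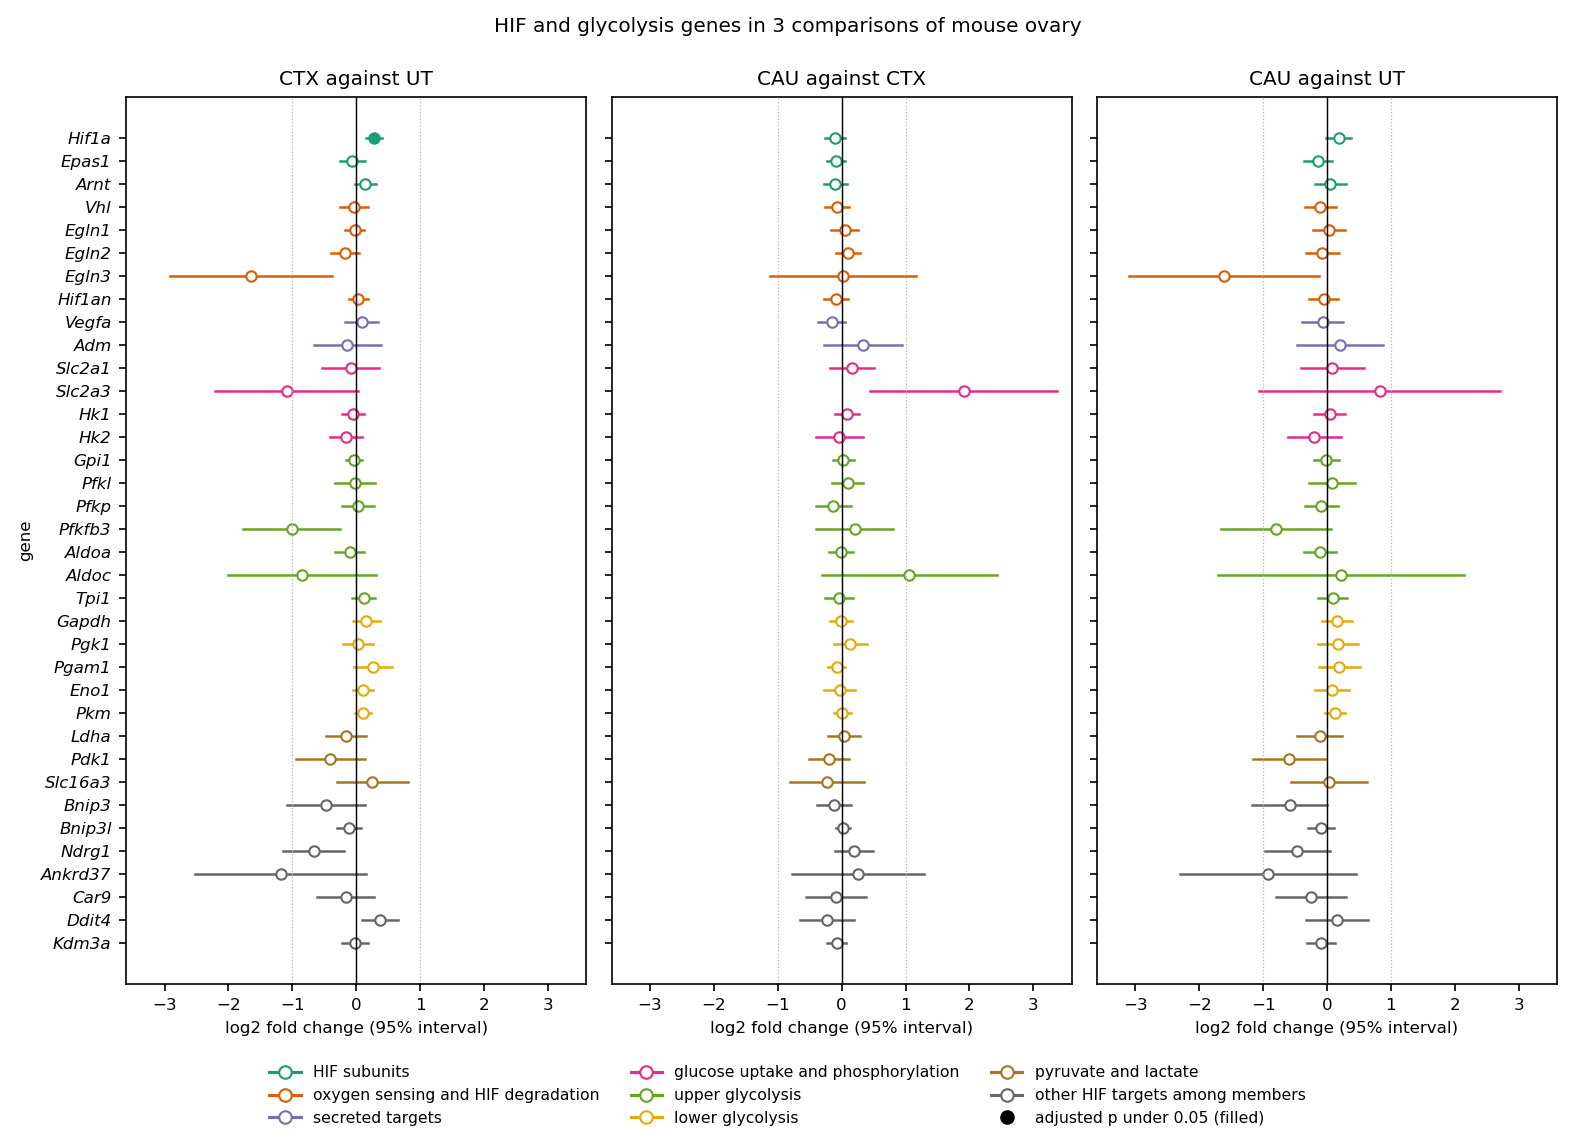
Log2 fold change of each of the 36 members (rows, coloured by role) in the 3 comparisons (panels), with 95% intervals from the implied standard error as bars, zero as a solid line and 2-fold as dotted lines. The filled point is Hif1a in CTX against UT, at 0.28, the only value with adjusted p under 0.05; Egln3, Slc2a3, Aldoc and Ankrd37 have the widest bars.

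The partners and paralogues of HIF-1 alpha did not pass. Epas1, which encodes the HIF-2 alpha subunit, was at -0.06 (SE 0.10) by the authors' deposited table for CTX against UT, with a 95% interval from -0.25 to 0.13. Arnt, the shared partner, was at 0.14 (SE 0.09, adjusted p = 0.630 by DESeq2) by the authors' deposited table. Whether Hif1a and Epas1 differ from each other in their response was not tested. For Hif1a itself, CAU against CTX gave -0.10 (SE 0.08) and CAU against UT gave 0.18 (SE 0.10) by the authors' deposited table, neither past the threshold. The CAU value therefore lay between those of UT and CTX. Its interval against UT, from -0.02 to 0.38, includes both no difference and the whole CTX difference. All 3 HIF subunit genes were negative in CAU against CTX, between -0.10 and -0.09, with SE from 0.07 to 0.09.

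The genes that limit HIF split by precision. Egln3 (chromosome 12, 54178981 to 54203874), a prolyl hydroxylase that is itself induced by HIF, was at -1.65 (SE 0.65, unadjusted p = 0.0113, adjusted p = 0.252 by DESeq2) by the authors' deposited table for CTX against UT. That is 0.319 of the UT level, with an interval from 0.132 to 0.773. At this SE an estimated 4.69-fold difference was needed to pass. CAU against UT gave nearly the same value for Egln3 by the authors' deposited table, -1.62 (SE 0.76, unadjusted p = 0.0330), and CAU against CTX gave 0.02 (SE 0.58). The point estimates of CAU and CTX thus lay together for Egln3, below UT, and did not pass. The interval of CAU against CTX, from 0.459- to 2.25-fold, is too wide to show that the levels were the same. The other limiters were tightly bounded near zero. Egln1, the main prolyl hydroxylase in most tissues, was at -0.03 (SE 0.08), and Hif1an, the asparaginyl hydroxylase that blocks coactivator binding, at 0.03 (SE 0.08) by the authors' deposited table for CTX against UT. Egln2 was at -0.17 (SE 0.11) and Vhl, the ubiquitin ligase subunit that captures hydroxylated HIF alpha, at -0.04 (SE 0.11) by the authors' deposited table for the same groups. All 4 had intervals inside 1.41-fold either way in all 3 comparisons.

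Neither of the secreted targets passed in any comparison. Vegfa, the vascular growth factor, was at 0.08 (SE 0.13) in CTX against UT, -0.16 (SE 0.11) in CAU against CTX and -0.07 (SE 0.16) in CAU against UT, by the authors' deposited table. Adm, which encodes the vasodilator peptide adrenomedullin, was less precise at -0.14 (SE 0.27), 0.34 (SE 0.31) and 0.20 (SE 0.35) by the authors' deposited table for the same order of comparisons. None of the 10 endothelial markers passed in any comparison by DESeq2, and their medians were -0.09, -0.11 and -0.23. At an unadjusted p under 0.05 there were 3, 2 and 2 of them, all lower (30%, 20% and 20%). The shares of all genes at that p, in either direction, were 10.2%, 5.36% and 3.46%.

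The glucose transporters differed from each other in precision. Slc2a1, which encodes the widely expressed transporter GLUT1, was at -0.09 (SE 0.23), 0.17 (SE 0.17) and 0.08 (SE 0.25) by the authors' deposited table for CTX against UT, CAU against CTX and CAU against UT. Slc2a3, which encodes GLUT3, a high-affinity transporter of neurons and white blood cells, was at -1.09 (SE 0.57) in CTX against UT and 1.91 (SE 0.74) in CAU against CTX by the authors' deposited table. The second of these is 3.75-fold, with an interval from 1.36 to 10.3, an unadjusted p of 0.0104 and adjusted p = 0.513 by DESeq2. CAU against UT gave 0.82 (SE 0.96) for Slc2a3 by the authors' deposited table. Of 11 macrophage markers, 5 fell in CTX against UT (all 11 negative, median -0.96) and 2 rose in CAU against CTX (9 positive, median 0.40). In CAU against UT, where the Slc2a3 value was positive, all 11 were negative (median -0.44, none called by DESeq2 and 5 at an unadjusted p under 0.05). The epithelial and erythroid marker lists, given further on, were also negative in CTX against UT and positive in CAU against CTX. In CAU against UT all 5 measured erythroid markers were negative (median -0.34). Of the 9 epithelial markers, 6 were negative and 3 positive there (median -0.21). None of these was called by DESeq2 in CAU against UT, and 2 epithelial markers had an unadjusted p under 0.05, both lower. The part of these cells in the Slc2a3 values was not tested, and the summed level of the markers in each group was not analysed here. Slc2a3 has no promoter entry.

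The hexokinases, which trap glucose in the cell, gave no passing value. Hk1 was at -0.05 (SE 0.09), 0.08 (SE 0.10) and 0.04 (SE 0.12) by the authors' deposited table for the 3 comparisons in the order above, and Hk2, the HIF-responsive isoform, was at -0.17 (SE 0.13), -0.04 (SE 0.19) and -0.20 (SE 0.21) by the authors' deposited table. All 4 genes of uptake and phosphorylation were negative in CTX against UT, with a median of -0.13. The share of all genes that were negative in that comparison was 55.8%.

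Among the 7 genes of upper glycolysis, Pfkfb3 stood lowest in CTX against UT. It makes fructose-2,6-bisphosphate, the main activator of phosphofructokinase, and lies on chromosome 2 from 11471430 to 11554071. Its log2 fold change was -1.01 (SE 0.39, unadjusted p = 0.00865, adjusted p = 0.218 by DESeq2) by the authors' deposited table, which is 0.496 of the UT level with an interval from 0.293 to 0.837. CAU against UT gave -0.80 (SE 0.44) and CAU against CTX 0.21 (SE 0.31) for Pfkfb3 by the authors' deposited table. As for Egln3, the point estimates of CAU and CTX lay together below UT without passing. Both estimates against UT share the UT libraries. The Pfkfb3 interval of CAU against CTX, from 0.760- to 1.75-fold, is too wide to show that the levels were the same. For 4 enzymes of the main chain the point estimates lay nearer to zero, and their difference from Pfkfb3 was not tested. Gpi1, the phosphoglucose isomerase, was at -0.04 (SE 0.06), the phosphofructokinases Pfkl at -0.02 (SE 0.16) and Pfkp at 0.03 (SE 0.13), and the triose isomerase Tpi1 at 0.12 (SE 0.09) by the authors' deposited table for CTX against UT.

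The aldolases again differed in precision. Aldoa, the abundant isoform, was at -0.11 (SE 0.12) in CTX against UT, -0.01 (SE 0.10) in CAU against CTX and -0.11 (SE 0.13) in CAU against UT, by the authors' deposited table. Aldoc, best known from brain, was at -0.85 (SE 0.59), 1.06 (SE 0.70) and 0.22 (SE 0.98) by the authors' deposited table for these comparisons. None of these values passed.

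The 5 enzymes of lower glycolysis yield ATP and pyruvate. All 5 were positive in CTX against UT, from 0.03 for Pgk1 to 0.26 for Pgam1 (median 0.11), and all 5 were positive in CAU against UT, from 0.08 for Eno1 to 0.19 for Pgam1 (median 0.16). Both comparisons share the UT libraries. In CAU against CTX they lay between -0.08 and 0.14, with a median of -0.00 (2 positive and 3 negative). None passed by DESeq2 in any comparison, and none had an unadjusted p under 0.05. Gapdh, the dehydrogenase often used as a reference gene, was at 0.16 (SE 0.11) in CTX against UT, -0.00 (SE 0.09) in CAU against CTX and 0.16 (SE 0.12) in CAU against UT, by the authors' deposited table. Pkm, the pyruvate kinase gene, was at 0.11 (SE 0.07), 0.01 (SE 0.07) and 0.13 (SE 0.08) by the authors' deposited table. The PKM1 and PKM2 isoforms share this gene and are not separated by it. An estimated 1.17-fold difference in Pkm would have passed in CTX against UT.

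Some glycolytic genes have near-identical copies between which reads can be divided. Eno1b, a retrocopy of Eno1, has its own line by the authors' deposited table, with 0.00 (SE 0.12), 0.05 (SE 0.13) and 0.06 (SE 0.15) in the 3 comparisons, beside 0.10 (SE 0.08), -0.03 (SE 0.12) and 0.08 (SE 0.13) for Eno1. The aldolase retrogenes Aldoart1 and Aldoart2 had SE of 0.64 and 2.57 in CTX against UT. By GENCODE vM21, exons of 14 of the 36 members overlap those of another gene, on the opposite strand for 13. Among them are Hif1a, which overlaps the antisense gene Gm15283 and the same-strand gene Gm49321, and Ndrg1, Slc2a1, Bnip3 and Car9, each with an antisense gene. The strand setting of the counting is not given in the sources used here, so reads of such pairs cannot be told apart. The genes overlapping Hif1a, Ndrg1, Slc2a1, Bnip3 and Car9 have no line of their own among the authors' genes. Those overlapping Egln2, Pfkp, Tpi1, Gapdh and Ankrd37 do. The length of each overlap was not measured.

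At the exit of glycolysis, no gene passed. Ldha was at -0.16 (SE 0.16), 0.04 (SE 0.13) and -0.12 (SE 0.18) by the authors' deposited table for CTX against UT, CAU against CTX and CAU against UT, so the member with the densest core matches in its first window lay near zero throughout. Pdk1, a kinase that shuts pyruvate out of mitochondrial oxidation by inactivating pyruvate dehydrogenase, was at -0.41 (SE 0.27), -0.19 (SE 0.16) and -0.59 (SE 0.29) by the authors' deposited table. The last of these had an unadjusted p of 0.0408 and adjusted p = 1.000 by DESeq2. Slc16a3, which encodes the lactate exporter MCT4, was at 0.25 (SE 0.28), -0.23 (SE 0.30) and 0.03 (SE 0.30) by the authors' deposited table.

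Of the 7 remaining HIF targets, 6 were negative in CTX against UT and none passed. Ndrg1 (chromosome 15, 66929318 to 66969641), a stress-induced gene often read as a hypoxia marker, was at -0.67 (SE 0.24, unadjusted p = 0.00593, adjusted p = 0.175 by DESeq2) by the authors' deposited table for CTX against UT. It was at 0.20 (SE 0.15) in CAU against CTX and -0.47 (SE 0.26) in CAU against UT by the authors' deposited table. Among the members, only Hif1a had a larger absolute z in CTX against UT. Ankrd37, an ankyrin repeat gene and HIF-1 target, was at -1.18 (SE 0.68), 0.25 (SE 0.53) and -0.92 (SE 0.70) by the authors' deposited table, and its precision was the lowest of the members in CTX against UT. Car9, the carbonic anhydrase used clinically as a hypoxia marker, was at -0.17 (SE 0.23), -0.09 (SE 0.24) and -0.25 (SE 0.28) by the authors' deposited table. The histone demethylase gene Kdm3a was at -0.02 (SE 0.10), -0.07 (SE 0.08) and -0.09 (SE 0.11) by the authors' deposited table.

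The mitophagy receptors Bnip3 and Bnip3l are paralogues with unlike precision. Bnip3 was at -0.47 (SE 0.31), -0.12 (SE 0.13) and -0.58 (SE 0.30) by the authors' deposited table, and Bnip3l at -0.12 (SE 0.10), 0.02 (SE 0.06) and -0.09 (SE 0.10). For Bnip3 the implied SE was 2.33 times as large in CTX against UT as in CAU against CTX, a ratio above that of 99.2% of 18773 genes. For Pgam1 it was 2.21 times, for Bnip3l 1.74, for Pdk1 1.69 and for Ndrg1 1.63. The members' median ratio was 1.04, beside 1.05 for all genes. These 5 genes were thus measured more precisely where the UT libraries did not enter. Other members went the opposite way, down to a ratio of 0.66 for Eno1, with a lower ratio in only 2.71% of genes. The smallest SE fell in CTX against UT for 18 members and in CAU against CTX for 18. Of 18773 genes, 6733 had it in CTX against UT, 10854 (57.8%) in CAU against CTX and 1186 in CAU against UT.

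In its point estimate for CTX against UT, Ddit4 went the other way from Ndrg1 and Bnip3. It encodes REDD1, an inhibitor of mTORC1 that responds to hypoxia, glucocorticoids and DNA damage, and lies on chromosome 10 from 59949675 to 59951770. Its log2 fold change was 0.37 (SE 0.15, unadjusted p = 0.0110, adjusted p = 0.247 by DESeq2) in CTX against UT by the authors' deposited table, the highest of the 36. CAU against CTX gave -0.22 (SE 0.22) and CAU against UT 0.15 (SE 0.25) for Ddit4 by the authors' deposited table.

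Among the members, the values far from zero in CTX against UT were the imprecise ones. Of the 24 members with an SE of at most 0.2, the 11 with an SE of at most 0.1 had a median log2 fold change of 0.03 (5 negative), and the other 13 a median of -0.02 (7 negative). The 8 members with an SE above 0.2 and up to 0.4 had a median of -0.29 (7 negative), and the 4 above 0.4 a median of -1.14 (4 negative). All genes shifted with precision too: their medians in the same 4 bands were 0.03, 0.02, -0.08 and -0.32, and 39.9%, 43.8%, 60.7% and 74.3% of them were negative. Negative values among imprecise members thus have a background in the whole table, from which the 8 and the 4 members lay further out. Depth per library is unknown here.

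**Figure D2:**
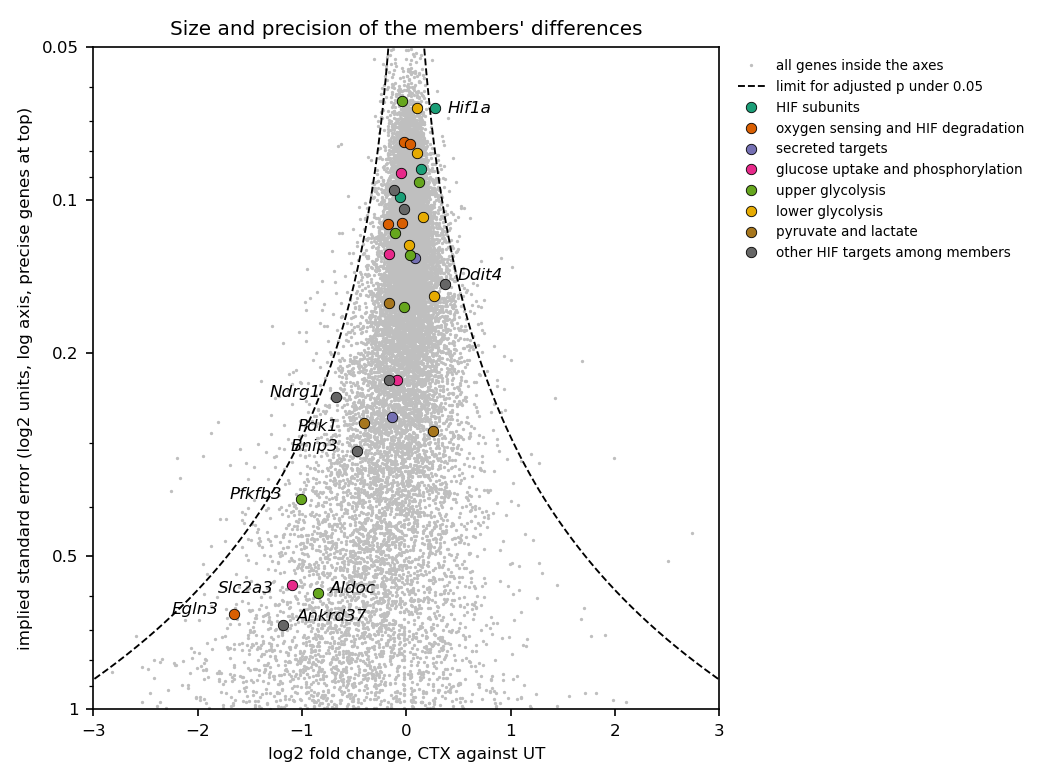
Log2 fold change in CTX against UT (x axis) against the implied standard error (y axis, log scale, most precise genes at the top) for the members, coloured by role, and for 15536 genes inside the axes (grey; 3724 genes lie outside). Dashed lines mark an absolute z of 3.43, beyond which adjusted p was under 0.05: Hif1a lies outside them at the top, while Egln3, Ankrd37, Slc2a3, Aldoc and Pfkfb3 lie low on the left inside them.

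The intervals bound what could have been missed. In CTX against UT, 29 of 36 members had a 95% interval inside 2-fold either way and 22 had one inside 1.41-fold, beside 61.8% and 42.7% of all genes. In CAU against CTX these were 32 and 25 members (65.6% and 49.2% of all genes), and in CAU against UT 29 and 21 members (62.0% and 39.8%). For 30 of 36 members in CTX against UT, an estimated difference under 2-fold would have passed the threshold at the gene's SE, from 1.16-fold for Gpi1. The other 6, Egln3, Slc2a3, Pfkfb3, Aldoc, Bnip3 and Ankrd37, needed more than 2-fold, up to 5.06-fold for Ankrd37. These limits apply to the estimate, and a true difference of that size could still be missed. In CAU against UT, where few genes were called, 13 members needed more than 2-fold.

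Between CAU and CTX, none of the 36 members passed by DESeq2, beside 0.442% of 19245 genes. One, Slc2a3, had an unadjusted p under 0.05 (2.78% of members, beside 5.36% of all genes). The members' median was -0.01 (all genes 0.00), with 17 positive and 19 negative. The lowest was Slc16a3 at -0.23, and 29 of 36 lay within 0.2 of zero. Between CAU and UT, none passed by DESeq2, beside 0.0518% of 19302 genes, and 2 had an unadjusted p under 0.05 (5.56%, beside 3.46% of all genes), Egln3 and Pdk1, both lower. The median was -0.03 (all genes -0.01), again with 17 positive and 19 negative. In CTX against UT the median was -0.05 (all genes -0.03), with 13 positive and 23 negative. With values shifted so that the median of all genes was 0, that split became 15 and 21. CTX against UT and CAU against UT share the UT libraries, so their values for a gene are not independent.

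Other genes of the pathway came from 3 lists of 75 genes, of which 73 were measured. They gave 1 call in CTX against UT, none in CAU against CTX and 1 in CAU against UT by DESeq2. These calls were 1.37%, 0% and 1.37% of the 73, beside 1.29%, 0.442% and 0.0518% of all genes. Stc1, which encodes the secreted glycoprotein stanniocalcin-1 and is a HIF target, rose in CTX against UT, by 0.90 (SE 0.26, adjusted p = 0.0424) or 1.87-fold by the authors' deposited table. That call was lost when z values were scaled to a spread of 1 (adjusted p = 0.0876). It was at -0.18 (SE 0.21) in CAU against CTX and 0.74 (SE 0.25) in CAU against UT by the authors' deposited table. P4ha2, another HIF target, which encodes a subunit of the enzyme that hydroxylates collagen prolines, rose in CAU against UT, by 1.16 (SE 0.23, adjusted p = 0.00236) or 2.23-fold by the authors' deposited table. In CTX against UT P4ha2 was at 0.97 (SE 0.32, adjusted p = 0.115 by DESeq2) by the authors' deposited table. Its paralogue P4ha1 was at 0.65 (SE 0.25) there.

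At an unadjusted p under 0.05, the 73 genes numbered 10, 8 and 6 in the 3 comparisons (13.7%, 11.0% and 8.22% of them), beside 10.2%, 5.36% and 3.46% of all genes. Of 31 further glycolysis and pyruvate genes, 5 (16.1%) reached that p in CTX against UT, all lower, beside 5.79% of all genes lower. They were Fbp2, a fructose bisphosphatase, at -0.85 (SE 0.29), Pfkfb2 at -0.27 (SE 0.09), Pdha1, the E1 alpha subunit of pyruvate dehydrogenase, at -0.57 (SE 0.28), and the mitochondrial pyruvate carrier subunits Mpc1 at -0.66 (SE 0.33) and Mpc2 at -0.67 (SE 0.33), by the authors' deposited table. None of the 5 passed by DESeq2. The list's median was -0.15, beside -0.03 for all genes. The largest absolute z of its genes in CAU against UT was that of Pfkfb1, at -0.98 (SE 0.46) by the authors' deposited table. Of 13 HIF partners and regulators, none passed in any comparison by DESeq2 (0, 2 and 0 at an unadjusted p under 0.05). Hif3a, which encodes an alpha subunit that can restrain HIF, was at 0.95 (SE 0.30, adjusted p = 0.172 by DESeq2) in CAU against CTX by the authors' deposited table. In the other comparisons the largest absolute z of the 13 belonged to Crebbp, a coactivator, at 0.17 (SE 0.09) in CTX against UT, and to Cited2, a competitor for that coactivator, at 0.47 (SE 0.25) in CAU against UT, by the authors' deposited table.

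Some marker lists of cell types moved in the same comparisons and stand beside these values. Of all genes, 1.29% were called in CTX against UT, 0.442% in CAU against CTX and 0.0518% in CAU against UT. An unadjusted p under 0.05 was reached by 10.2%, 5.36% and 3.46% of all genes, in that order. In CTX against UT, 3 of 10 granulosa markers rose (all 10 positive, median 0.51), 5 of 11 macrophage markers fell (median -0.96) and 2 of 9 oviduct and surface epithelium markers fell (all 9 negative, median -1.57). None of 8 adipocyte markers (all negative, median -1.17) or 5 measured erythroid markers (all negative, median -1.24) passed by DESeq2. Of each list, 1 gene had an unadjusted p under 0.05. Of 10 immediate early genes, which can respond to handling, none passed by DESeq2 (8 negative, median -0.34, 5 at an unadjusted p under 0.05). Whether handling had a part in these values was not tested. Other lists had medians nearer to zero: smooth muscle -0.05, skeletal muscle -0.07 and luteal cells -0.17. No gene of these lists had an unadjusted p under 0.05 by DESeq2. Theca and interstitial markers were positive for 5 of 8 (median 0.26) and oocyte markers for 9 of 10 (median 0.14). None of them was called by DESeq2, with 1 of each list at an unadjusted p under 0.05. In CAU against CTX the epithelial and erythroid lists were all positive (medians 0.78 and 0.89), with no gene past the threshold by DESeq2 and 6 and 2 at an unadjusted p under 0.05. In the same comparison 7 of 10 granulosa markers were negative (median -0.13), and 1 of them, Inhbb, which encodes an inhibin and activin subunit, fell. All 10 oocyte markers (median -0.12) and all 8 adipocyte markers (median -0.13) were negative there, none called by DESeq2 and 1 of each at an unadjusted p under 0.05. In CAU against UT no marker of these lists passed by DESeq2. There all 10 granulosa markers were positive (median 0.38, 3 at an unadjusted p under 0.05). All 8 adipocyte markers were negative (median -1.41, 1 at that p), beside the macrophage, epithelial and erythroid values given above. The part of these cells in the rise of Hif1a, or in the values of Egln3, Pfkfb3, Ndrg1 and Slc2a3, was not tested.

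**Figure D3:**
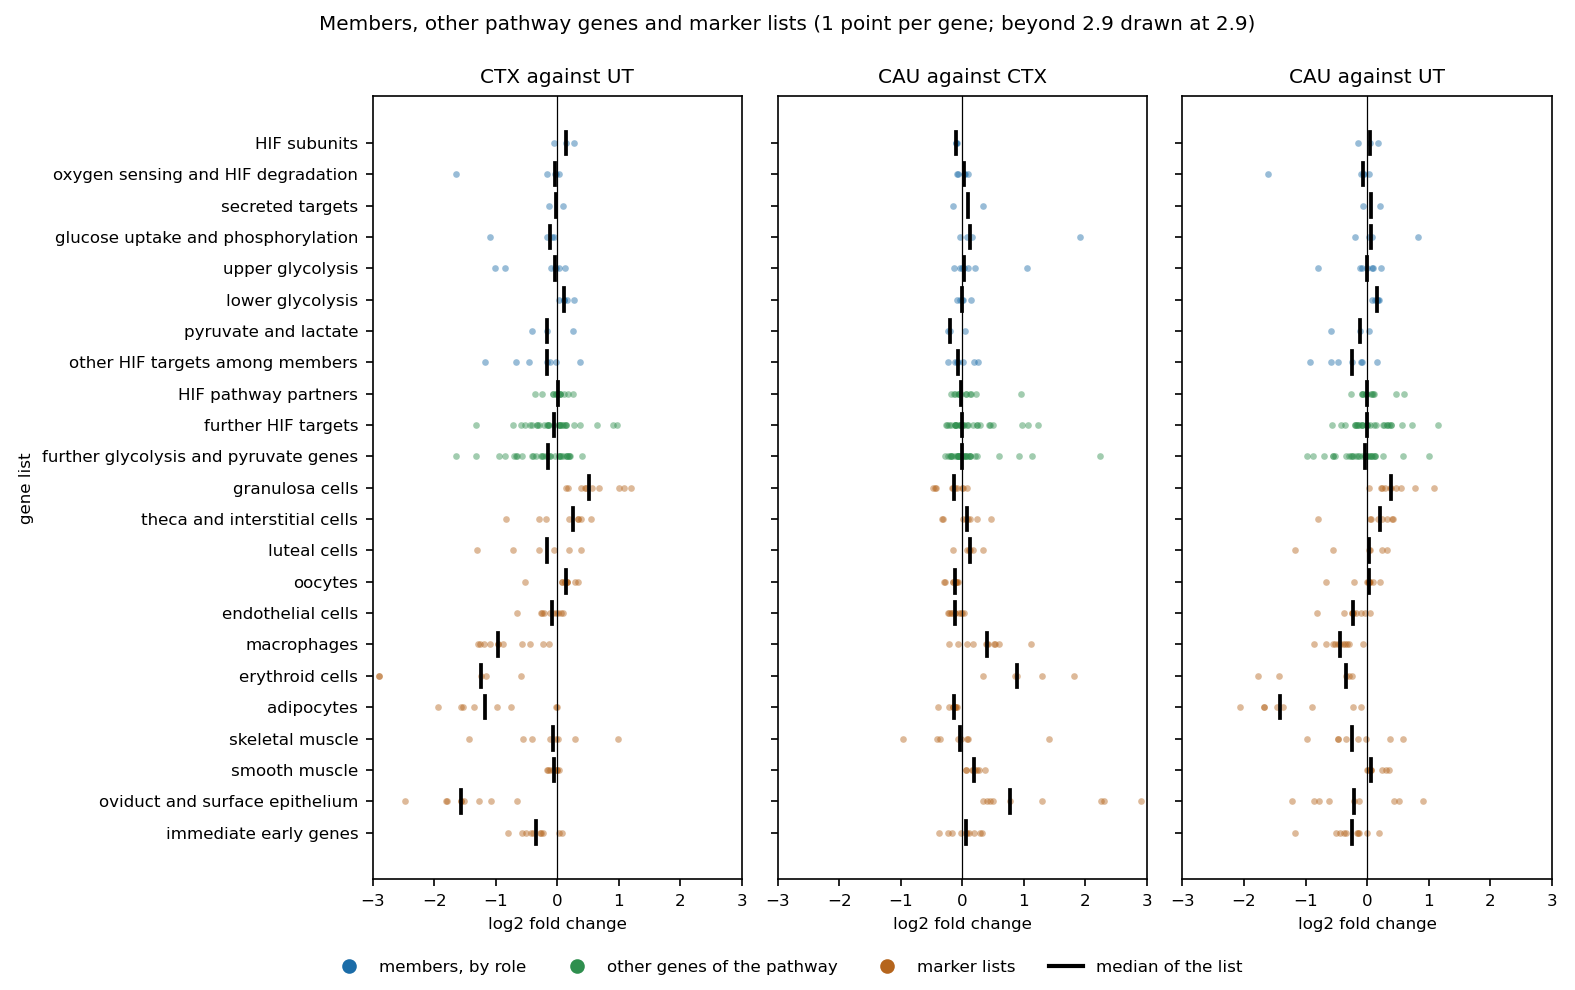
Log2 fold change of each gene (points) in the members by role (blue), other pathway genes (green) and marker lists (brown), with the list median as a black bar, in the 3 comparisons (panels). Members' medians lie within 0.25 of zero in every panel, while macrophage, epithelial, erythroid and adipocyte markers lie near or below -1 in CTX against UT; 3 points beyond 2.9 are drawn at that edge.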

How the data were processed

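RNA-seq of ovarian tissue covered 9 libraries in 3 groups of 3, taken from sample titles. Build GRCm38.p6 and the tools DESeq2 1.44.0, RSEM 1.3.1, Bowtie2 and HISAT2 come from the submitters' processing notes, which are held here without roles or order. The only file was the authors' deposited table of comparisons. Per the file headers it holds, for each gene and comparison, the p-value and q-value of DESeq2 and the log2 fold change, all computed by the authors. The q-value, called adjusted p here, differed by at most 7.74e-05 from a Benjamini-Hochberg adjustment of the deposited p-values. Between 215 and 272 of 19517 genes were blank in a comparison and were left out. With depth unknown, no count-based interval or floor is given.

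The implied SE is the log2 fold change divided by the z of its 2-sided p-value, assuming an unshrunken Wald test. The 95% intervals are normal. Genes with adjusted p under 0.05 over all genes are called. CTX against UT plus CAU against CTX, minus CAU against UT, was the same to within 0.01 for all 36 members (-0.0083 to -0.0071), so the columns share 1 convention. The planned count test needed values per library and was replaced by the authors' DESeq2 result.

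Members and lists were chosen with earlier results of these data known. Full statistics are given for called members, 12 set members, the 3 members with the largest absolute z in each comparison, and, from other lists, called genes and the largest absolute z, of which some are not reported here. Genes at an unadjusted p under 0.05 were named as well. The bands of precision, the SE ratios and the choice of printed windows were made after values were seen. Promoter windows came from RefSeq, matched by symbol, and exon overlaps from GENCODE vM21, both on GRCm38. Scripts used matplotlib 3.10.9, scipy 1.17.1, pandas 2.3.3, numpy 2.4.6 and Python 3.11.15 and were tested on simulated data.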

Additional observations from a re-analysis of the deposited data

How the results depend on the processing

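The number of members called was unchanged in each comparison (1, 0 and 0) with adjusted p under 0.1 or 0.01, with values shifted to put the median of all genes at 0, with genes of an implied SE of at most 0.5, and with z scaled to a spread of 1. Under the last 3 of these the adjusted p of Hif1a in CTX against UT ranged from 0.00134 to 0.0153. The members' median in CTX against UT moved from -0.05 to -0.02 with that shift and to -0.03 with the limit on SE. With z scaled to a spread of 1, the other pathway genes called became 0 in CTX against UT (Stc1 lost, adjusted p = 0.0876), 1 in CAU against CTX (Hif3a, adjusted p = 0.0304) and 2 in CAU against UT (P4ha2, with Stc1 at adjusted p = 0.0171). The spread of z as deposited was 1.06, 0.871 and 0.756 in that order. Of 152 alternatives for 25 single genes, 149 kept their side of the threshold and none reversed. A reversal could hardly occur: the SE limit and the z scaling leave each log2 fold change as it was. The median shift was small (all-gene medians -0.03, 0.00 and -0.01). Most of these genes also lay far from the threshold, so the count says little about robustness. Counting GCGTG as well as ACGTG, a choice made after the data were seen, gave 28 of 32 members with a match, beside 57.7% of genes in the deposited table. No paired analysis was possible because the table holds no values per library, and for that reason leaving out each replicate, DESeq2 against edgeR and a low-count filter were not run.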
